A study of Mus musculus with 6 samples.

Results

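The genes described here encode 10 dual-specificity phosphatases that act on MAP kinases, Dusp1, Dusp2, Dusp4, Dusp5, Dusp6, Dusp7, Dusp8, Dusp10, Dusp14 and Dusp16. They were chosen by gene symbol, and each symbol belonged to 1 of the 25001 loci measured. The mRNA was sequenced in 6 libraries of 427 cells, a mouse thymoma line, with 1 library per condition. The study asked which transcripts follow the release of EICD, the intracellular domain of the membrane protease epithin/PRSS14 (gene St14). It proposes that the protease SPPL2b cuts this domain out of the membrane, and does not exclude a part for related proteases. The phorbol ester PMA, which induces shedding of the ectodomain, was used to start this release.

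All libraries came from cells of passage 4 to 10. Wild type 427 cells stably carrying the empty pSUPER vector received DMSO, the solvent control, or 1 µM PMA for 2 h, in both cases after 2 h without serum. Cells labelled SPPL2b KD received DMSO or PMA in the same way. Other cells labelled SPPL2b KD were transfected with a GFP vector alone, or with GFP and Flag-tagged EICD (residues 1 to 55 of epithin/PRSS14), and GFP-positive cells were sorted 24 h later. For the cells labelled KD the labels give an siRNA against SPPL2b, whereas the methods of the study describe a stable shRNA and single-cell clones, with clone SP2bKD-10 used for transfection. The labels do not name the clone. Because each condition was a single library, no difference below has a replicate check, and no p-value was computed.

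Values are FPKM, fragments per kilobase of transcript corrected for library size, as computed by the authors. FPKM is a value per length, so levels can be compared between genes. Fragment numbers were not part of the tables used. Rough estimates of 26500000 to 30700000 fragments per library came from the median of the lowest FPKM values, scaled by length. Only values in a fixed range were used, and the choice of this range partly sets the estimates. The targeted gene, Sppl2b, went against its label. Its FPKM was 9.90 and 6.86 in 427 cells with DMSO and PMA and 13.4 and 9.37 in the corresponding libraries labelled SPPL2b KD. Directions drawn from these libraries therefore compare libraries by label, without a lower Sppl2b FPKM in the libraries themselves. The study tested its knockdown clones by real-time PCR of SPPL2b mRNA. It also reported that PMA led to less EICD in these clones. St14 had an FPKM of 614.5 in the library with EICD and 69.6 to 105.4 in the others. All 8 epithelial markers examined reached an FPKM of 1 in at least 1 library, led by Krt5 and Krt14, with a summed FPKM of 6647 to 15156 per library. Of 8 T-lineage markers only Rag1 did, Cd3d, Cd3e and Cd4 were at 0 in all 6 libraries, and the summed FPKM was 1.96 to 3.72. Summed FPKM was 0.439 to 2.17 for 6 fibroblast markers and 7.01 to 12.2 for 5 macrophage markers.

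MAP kinases are switched on when a threonine and a tyrosine in their activation loop are both phosphorylated, and dual-specificity phosphatases switch them off by removing both phosphates. Several of these phosphatases are themselves transcribed when MAP kinases are active, which makes them a negative feedback on the pathway. PMA activates protein kinase C, which feeds into Ras, RAF, MEK and the MAP kinase ERK. The phosphatases differ in where they act. Dusp1, Dusp2, Dusp4 and Dusp5 are inducible nuclear enzymes, Dusp6 and Dusp7 are cytoplasmic and prefer ERK, Dusp8, Dusp10 and Dusp16 act mainly on the stress kinases JNK and p38, and Dusp14 is a small, atypical enzyme without the domain by which the others bind MAP kinases.

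All 10 genes except Dusp2 were expressed at an FPKM of 3 or more in every library. The summed FPKM of the 10 genes was 144.7 in 427 cells with DMSO and 355.3 with PMA. In the libraries labelled SPPL2b KD it was 124.6 with DMSO and 266.3 with PMA, 261.9 with GFP and 288.5 with GFP and EICD. The composition of this sum differed between conditions. Dusp7 had the highest level of the 10 genes in both DMSO libraries, Dusp6 in both PMA libraries, and Dusp1 in both transfected libraries. Dusp2 had the lowest level in all 6 libraries. Since there was 1 library per condition, the spread between replicates, and with it the separation of neighbours in these orders, is not known. In these bulk libraries, fewer cells expressing a gene and less RNA of it per cell cannot be told apart.

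**Figure D1:**
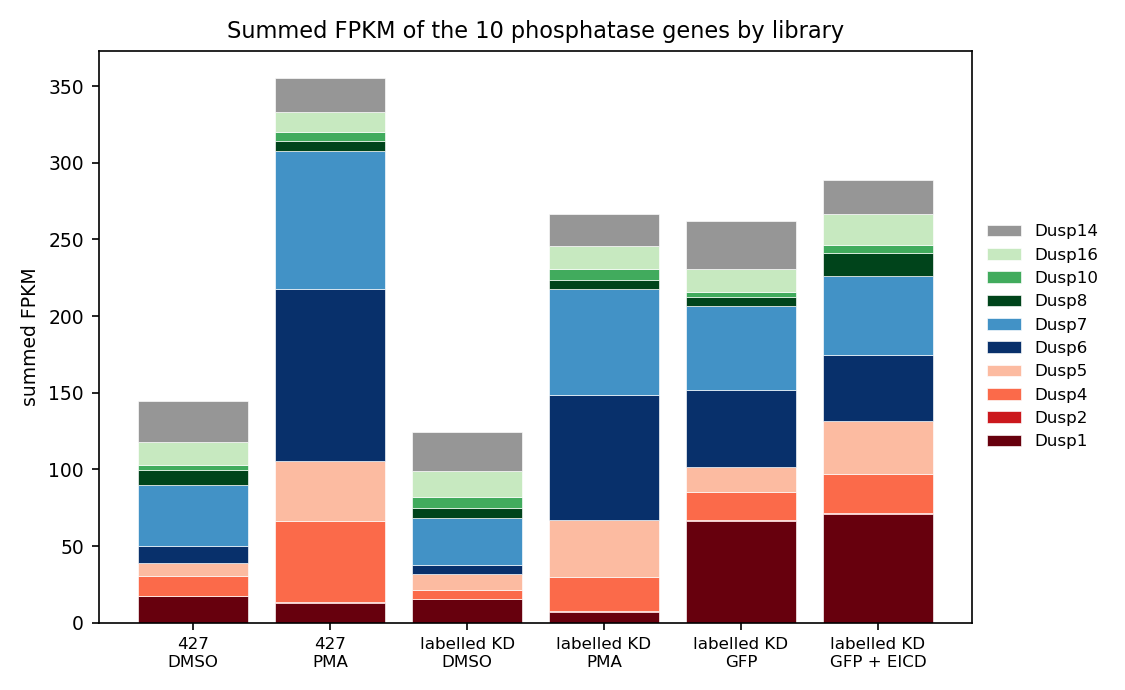
Summed FPKM of the 10 phosphatase genes in each of the 6 libraries, with each coloured segment showing the FPKM of 1 gene. The sum was 144.7 and 124.6 with DMSO and 355.3 and 266.3 with PMA, and the dark blue Dusp6 segment was the largest in both PMA libraries.

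The genes ranged widely in how far their levels differed between libraries. The highest FPKM was 18.8 times the lowest for Dusp6, 9.85 times for Dusp1 and 9.39 times for Dusp4. It was 4.81 times for Dusp5, 4.16 times for Dusp2, 2.94 times for Dusp7, 2.71 times for Dusp8 and 2.28 times for Dusp10. Dusp16 and Dusp14 were nearly flat by this measure, at 1.55 and 1.52 times.

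**Figure D2:**
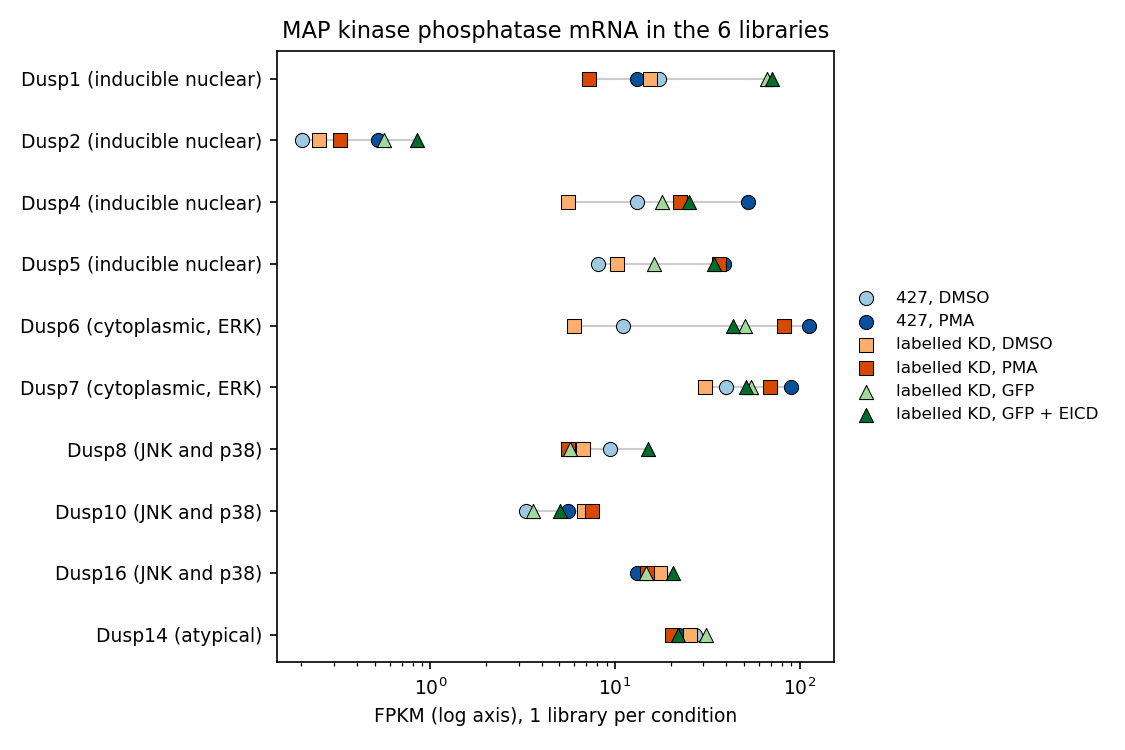
FPKM (log axis) of each phosphatase gene in the 6 libraries, 1 point per library. Dusp6 spanned 5.98 to 112.3, Dusp1 was highest in both transfected libraries, and the points of Dusp16 and Dusp14 lay close together.

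Promoter sequence was at hand from RefSeq for 9 of the 10 genes, all but Dusp4. It is shown for the genes that marked the comparisons below. These are Dusp6, the gene with the largest PMA difference, Dusp5 and Dusp8, the only members more than 2-fold higher with EICD, and Dusp1, the most abundant member in the transfected cells. Each stretch is 200 bases on GRCm38.p6, from 250 to 51 bases before the RefSeq start, 5′ to 3′ on the strand of the gene, and capitals mark CRE motifs in Dusp1 and Dusp8 and CArG boxes in Dusp5. The CRE is the element bound by CREB and ATF factors, and the CArG box is bound by serum response factor.
Dusp6 promoter, chr10:99262981-99263180 (plus strand): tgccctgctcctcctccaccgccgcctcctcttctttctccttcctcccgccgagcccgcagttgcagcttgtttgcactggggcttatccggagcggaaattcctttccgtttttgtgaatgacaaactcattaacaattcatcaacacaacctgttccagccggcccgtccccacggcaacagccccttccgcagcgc
Dusp5 promoter, chr19:53528895-53529094 (plus strand): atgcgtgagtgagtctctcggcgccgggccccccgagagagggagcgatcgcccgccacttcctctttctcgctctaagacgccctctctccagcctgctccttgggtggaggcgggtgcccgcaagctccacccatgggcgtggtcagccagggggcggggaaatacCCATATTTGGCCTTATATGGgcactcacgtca
Dusp8 promoter, chr7:142095335-142095534 (minus strand): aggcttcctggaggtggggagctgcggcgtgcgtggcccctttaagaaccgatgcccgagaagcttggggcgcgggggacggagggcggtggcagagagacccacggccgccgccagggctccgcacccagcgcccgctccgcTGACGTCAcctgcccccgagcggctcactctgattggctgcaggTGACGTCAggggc
Dusp1 promoter, chr17:26508523-26508722 (minus strand): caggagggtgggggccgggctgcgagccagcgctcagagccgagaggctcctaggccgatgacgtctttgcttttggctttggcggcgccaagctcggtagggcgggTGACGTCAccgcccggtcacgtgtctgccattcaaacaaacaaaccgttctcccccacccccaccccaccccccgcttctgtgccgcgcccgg

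In these lines Dusp5 carried 2 adjoining CArG boxes, 82 to 73 and 72 to 63 bases before the start, and Dusp8 carried 2 copies of the CRE, at -107 to -100 and -63 to -56. Dusp1 carried 1 CRE, 143 to 136 bases before its start. The search covered 300 bases (250 before to 50 after the start) on both strands of 32851 RefSeq promoters, for AP-1 (TGANTCA), CRE (TGACGTCA), ETS (CCGGAAG), the TATA box (TATAAA), the CArG box and the NF-kappaB motif. No motif in this set overlapped another in the members. Of all promoters, 1.79% held a CRE and 0.0396% held 2 or more, and 1.63% held a CArG box and 0.0183% held 2 or more. AP-1 was found in 7.81%, NF-kappaB in 8.46%, ETS in 8.86% and TATA in 13.6%. The promoters of Dusp2, Dusp6, Dusp7, Dusp10, Dusp14 and Dusp16 held none of these 6 motifs in this window, and binding was not measured. The 200 bases printed for Dusp5 lay wholly in an exon of the antisense gene AC137853.2, and those printed for Dusp8 in an intron of a longer Dusp8 transcript.

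The first comparison asked what 2 h of PMA did to the phosphatase genes in 427 cells. Here 9 of the 10 genes, all but Dusp2, passed a minimum FPKM of 1 in 1 or both of the libraries. Of these 9, Dusp4, Dusp5, Dusp6 and Dusp7 were more than 2-fold higher with PMA and 0 were more than 2-fold lower. The background was 3.79% of 10410 genes higher and 4.54% lower by the same rule. The median log2 fold change was 0.77 over the 9 genes and -0.12 over all 10410.

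PMA in the libraries labelled SPPL2b KD gave 4 higher genes, again Dusp4, Dusp5, Dusp6 and Dusp7, and 1 lower gene, Dusp1. The background was 3.38% of 10382 genes higher and 5.5% lower, and the median log2 fold change was 0.14 over the 9 phosphatases and -0.15 over all genes. Scaling by the median ratio between libraries brought the medians of all genes to -0.02 in both lines. It also turned the split of higher and lower genes in the KD-labelled libraries from 351 and 571 to 448 and 397, and in 427 cells from 395 and 473 to 455 and 369. Smaller negative values below should be read against these medians.

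Dusp6 (chromosome 10, 99263231 to 99267488, plus strand, GRCm38) encodes the cytoplasmic phosphatase that recognises ERK with high selectivity. Its FPKM was 11.1 with DMSO and 112.3 with PMA in 427 cells, 5.98 and 82.0 in the libraries labelled SPPL2b KD, and 50.6 with GFP and 43.6 with GFP and EICD. Both PMA libraries were higher than all others, and the transfected libraries lay between them and the DMSO libraries. With PMA it was 10.1-fold higher in 427 cells, a log2 fold change of 3.34 with an approximate 95% counting interval of 3.24 to 3.44, and 13.7-fold higher with the KD label (3.78, 3.64 to 3.92). These intervals rest on the estimated fragment numbers and cover counting error only, not the spread between cultures. Of all genes compared, 99.6% had a lower PMA log2 fold change than Dusp6 in 427 cells and 99.8% in the KD-labelled libraries. Its share of the summed FPKM of the 10 phosphatases went from 7.65% to 31.6% in 427 cells and from 4.80% to 30.8% with the KD label.

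Dusp7 (chromosome 9, 106368632 to 106375724, plus strand) encodes the other cytoplasmic, ERK-directed enzyme. It had an FPKM of 40.2 and 90.05 in 427 cells with DMSO and PMA, 30.6 and 69.1 with the KD label, and 54.7 and 51.1 in the libraries with GFP and with GFP and EICD. The order of the libraries was the same kind as for Dusp6, with PMA highest and DMSO lowest, at a smaller range. With PMA it was 2.24-fold higher in 427 cells and 2.26-fold higher in the libraries labelled KD. Its share of the phosphatase sum was 27.7% and 25.3% in 427 cells with DMSO and PMA. Summed over both cytoplasmic genes, FPKM was 51.2 and 202.4 in 427 cells and 36.6 and 151.1 with the KD label.

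Of the nuclear enzymes, Dusp5 (chromosome 19, 53529109 to 53542431, plus strand) is specific for ERK. Its FPKM was 8.12 and 39.1 in 427 cells with DMSO and PMA, 10.2 and 36.7 with the KD label, and 16.3 and 34.5 with GFP and with GFP and EICD. Both PMA libraries and the EICD library stood at similar, high levels. With PMA it was 4.81-fold higher in 427 cells and 3.60-fold higher in the libraries labelled KD. Of its 2473 annotated exon bases, 547 also lie in exons of AC137853.2 on the opposite strand. Counting by strand was not stated, so reads from this stretch cannot be told apart.

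Dusp4 (chromosome 8, 34806958 to 34821950, plus strand), an inducible nuclear enzyme acting on ERK and JNK, had an FPKM of 13.1 and 52.5 in 427 cells with DMSO and PMA and 5.59 and 22.6 with the KD label. With GFP and with GFP and EICD its FPKM was 18.0 and 25.1. With PMA it was 4.00-fold and 4.03-fold higher in the 427 and KD-labelled libraries, from a starting level that was lower with the KD label. Dusp2 (chromosome 2, 127336159 to 127338376, plus strand), known mostly from activated immune cells, stayed below an FPKM of 1 in all 6 libraries. Its levels were 0.202 and 0.517 in 427 cells, 0.247 and 0.325 with the KD label, and 0.563 and 0.842 in the transfected libraries. Its estimated fragments were 9 to 39 per library. The log2 difference with PMA was 1.31 in 427 cells, with a counting interval of 0.26 to 2.69, and 0.38 with the KD label, with an interval of -0.82 to 1.63. Only the first of these intervals lay above 0.

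Dusp1 (chromosome 17, 26505590 to 26508519, minus strand) encodes the classical immediate early phosphatase, which acts on p38, JNK and ERK, and it went the other way. Its FPKM was 17.4 with DMSO and 13.2 with PMA in 427 cells and 15.5 and 7.19 with the KD label. The FPKM was 66.7 with GFP and 70.8 with GFP and EICD, so that both transfected libraries stood far above the other 4. The PMA log2 fold change was -0.40 in 427 cells and -1.11 in the libraries labelled KD, with a counting interval of -1.27 to -0.96. After scaling by the median ratio the latter was -0.99, inside the 2-fold limit. It shares 11 of 3311 exon bases with Ergic1 on the opposite strand.

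The enzymes directed at JNK and p38 and the atypical Dusp14 had no PMA difference beyond 2-fold. Dusp8 (chromosome 7, 142079488 to 142095900, minus strand) had an FPKM of 9.39 and 6.66 in 427 cells with DMSO and PMA, 6.74 and 5.56 with the KD label, and 5.69 and 15.1 with GFP and with GFP and EICD. The EICD library alone stood out above the rest. Dusp16 (chromosome 6, 134715468 to 134792625, minus strand) had an FPKM of 15.0 and 13.2 in 427 cells, 17.6 and 14.9 with the KD label, and 14.8 and 20.5 in the transfected libraries. Dusp14 (chromosome 11, 84048041 to 84069261, minus strand) had an FPKM of 27.0 and 22.2 in 427 cells, 25.3 and 20.4 with the KD label, and 31.1 and 21.9 in the transfected libraries. The PMA log2 fold changes of these 3 genes lay between -0.49 (Dusp8 in 427 cells) and -0.18 (Dusp16 in 427 cells).

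Dusp10 (chromosome 1, 184013302 to 184075636, plus strand), another phosphatase for JNK and p38, was the least abundant after Dusp2 in 4 of the libraries. Its FPKM was 3.28 and 5.59 in 427 cells with DMSO and PMA, 6.80 and 7.49 with the KD label, and 3.60 and 5.02 with GFP and with GFP and EICD. The levels with the KD label and DMSO or PMA were the highest. The PMA log2 fold change was 0.77 in 427 cells and 0.14 with the KD label. Summed over Dusp8, Dusp10 and Dusp16, FPKM was 27.6 and 25.5 in 427 cells with DMSO and PMA and 31.1 and 28.0 with the KD label.

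**Figure D3:**
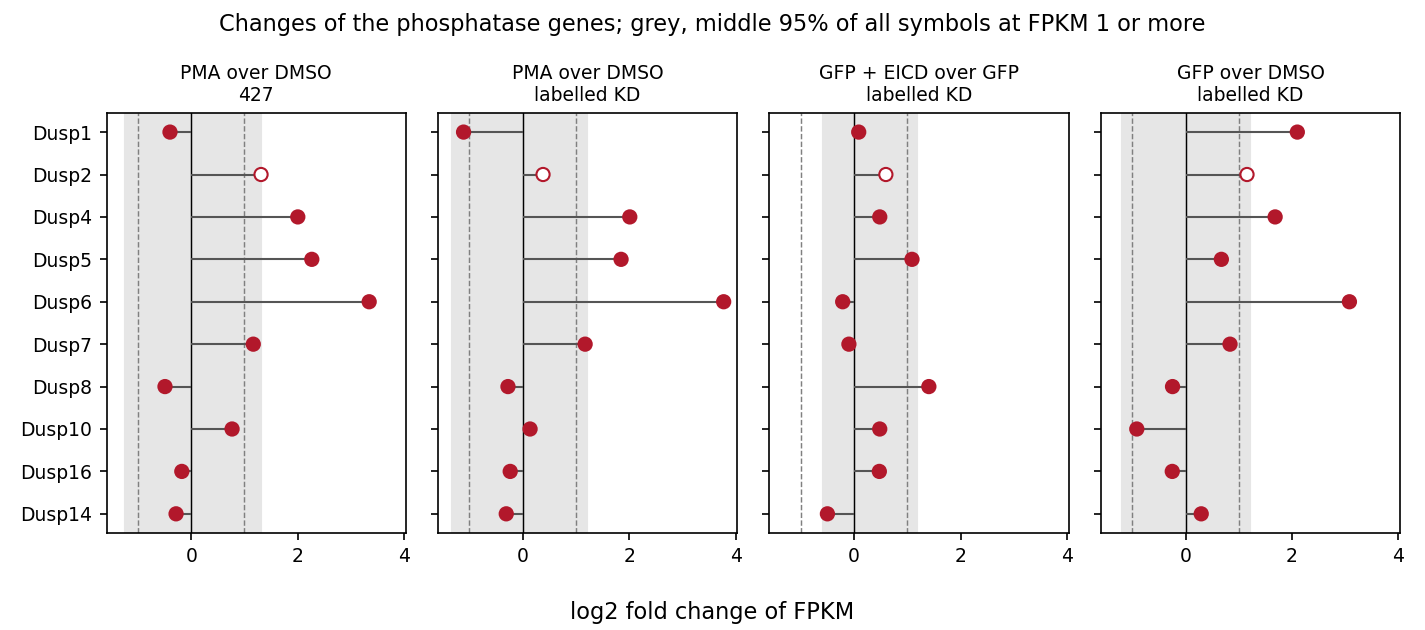
Log2 fold change of FPKM of each phosphatase gene in 4 comparisons, PMA over DMSO in 427 and in KD-labelled libraries, GFP with EICD over GFP, and GFP over DMSO. Dashed lines mark 2-fold, grey spans the middle 95% of all gene symbols at FPKM 1 or more, and the open symbol is Dusp2, which stayed below that minimum. Dusp6 was the farthest to the right in both PMA panels (3.34 and 3.78) and Dusp8 in the EICD panel (1.40).

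Whether PMA acted alike in both lines was described by the difference of the log2 fold changes, KD label minus 427. For none of the 10 genes did it exceed 1 in either direction, and it did for 232 of 10220 genes (2.27%). It was 0.43 for Dusp6, 0.01 for Dusp4 and 0.0084 for Dusp7. The negative end held Dusp5 at -0.42, Dusp10 at -0.63, Dusp1 at -0.71 and Dusp2, at its very low level, at -0.93. No test of these differences was possible.

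The levels of the 2 lines were also compared directly, with DMSO and with PMA. These comparisons use the same libraries as the PMA comparisons, so the values are given side by side only. With DMSO, Dusp10 was more than 2-fold higher in the library labelled SPPL2b KD (log2 fold change 1.05, counting interval 0.84 to 1.27) and Dusp4 more than 2-fold lower (-1.23, -1.40 to -1.06). The background was 2.91% of 10452 genes higher and 2.49% lower. Dusp10 was inside the 2-fold limit with 1 added to both FPKM values (0.87) and after scaling by the median ratio (0.997). With PMA, 0 of the 9 were above the 2-fold limit and Dusp4 alone was lower (-1.22, -1.29 to -1.14), with a background of 2.03% higher and 2.5% lower of 10294 genes. Dusp4 was thus lower with the KD label in both pairs, by nearly the same amount. Dusp6 was at -0.89 with DMSO and -0.45 with PMA, and Dusp1 at -0.16 and -0.87. With the KD label Sppl2b itself was at 0.44 and 0.45.

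The comparison of GFP and EICD with GFP alone addressed EICD without PMA. Of 9 phosphatase genes, Dusp5 and Dusp8 passed 2-fold toward higher levels with EICD and 0 toward lower levels, against a background of 3.5% higher and 0.449% lower of 10475 genes. The median log2 fold change was 0.47 over the 9 genes and 0.067 over all genes. Dusp8 was 2.65-fold higher, a log2 fold change of 1.40 with a counting interval of 1.28 to 1.53. Dusp5 was 2.13-fold higher, and its log2 fold change of 1.09 had an interval of 0.98 to 1.19 that included the 2-fold limit.

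The other phosphatases were within 2-fold. Dusp4 and Dusp10 both had a log2 fold change of 0.48 and Dusp16 of 0.47, all toward higher levels with EICD. Dusp1 was at 0.087 and Dusp7 at -0.098. Dusp6, which had the largest PMA difference, was at -0.21, and Dusp14 was lowest at -0.50, where 4.12% of genes were lower. Summed over Dusp8, Dusp10 and Dusp16, FPKM was 24.1 with GFP and 40.6 with GFP and EICD, and over Dusp6 and Dusp7 it was 105.3 and 94.7. Dusp8 shares 66 of 4870 exon bases with Gm32786 on the opposite strand.

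The library with GFP alone differed from the DMSO library with the same label by transfection and sorting, and serum withdrawal is stated for the DMSO library only. The effects of these steps cannot be told apart. Dusp6 (8.45-fold), Dusp1 (4.29-fold) and Dusp4 (3.21-fold) were over 2-fold higher with GFP and 0 of the 9 genes were over 2-fold lower, against 3.44% higher and 3.67% lower of 10446 genes. The median log2 fold change was 0.67 over the 9 genes and -0.075 over all genes. Dusp10 had the most negative value at -0.92, with a counting interval of -1.13 to -0.70. Dusp1 had a high level here and no higher level with PMA, and its share of the phosphatase sum was 25.5% with GFP, 12.5% with DMSO and 2.70% with PMA under the same label.

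Other genes of the pathway were described in lists. Of 33 genes of the MAP kinase cascade (kinases, Ras and RAF proteins and the like), 31 reached an FPKM of 1 in each comparison. With PMA 0 were more than 2-fold higher and 1 was lower in either line, namely Map2k6, a kinase that activates p38. Its FPKM was 7.23 and 2.55 in 427 cells with DMSO and PMA and 10.1 and 3.16 with the KD label. The list median of the log2 fold change was -0.089 in 427 cells, -0.0091 with the KD label and 0.093 with EICD, and with EICD 0 genes passed 2-fold.

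Of 8 further phosphatases of MAP kinases outside the dual-specificity family, 5 reached the minimum and 0 passed 2-fold in the PMA, EICD and GFP comparisons. Of 14 other dual-specificity phosphatase genes 13 were found and 6 reached the minimum. In this list 1 was more than 2-fold higher with PMA under the KD label, Dusp12, with an FPKM of 6.29 with DMSO and 12.9 with PMA, and 0 in 427 cells, with EICD or with GFP. Dusp9, a cytoplasmic relative of Dusp6 and Dusp7, differed with PMA by 0.51 on the log2 scale in 427 cells and by 0.50 with the KD label. Its FPKM was 2.18 and 3.11 in 427 cells with DMSO and PMA and 5.35 and 7.56 with the KD label, so that it was more than 2-fold higher with the KD label in both pairs (log2 fold changes 1.29 and 1.28). It was the only gene of its list above 2-fold with the KD label and DMSO, and with PMA there were 2, Dusp9 and Dusp12 (1.15). Dusp12, Dusp9, Etv4, Epha4, Jun and Egr1 were chosen for mention after their values were seen.

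Of 8 genes known as transcriptional output of ERK, 7 reached the minimum, and 5 of these in 427 cells and 4 with the KD label were more than 2-fold higher, with list medians of 1.13 and 1.84. The log2 fold changes in 427 cells and with the KD label were 2.04 and 2.94 for Ccnd1, which encodes cyclin D1. They were 2.15 and 2.29 for the ephrin receptor gene Epha2, 1.96 and 1.84 for Phlda1, and 1.13 and 1.89 for Etv5, an ETS factor. Within 2-fold in both lines were Etv4 (0.87 and 0.89) and Epha4, which was the only one of the 7 with negative values (-0.11 and -0.24). With EICD, 0 of the 7 passed 2-fold and the median was 0.055. With GFP over DMSO 3 were higher.

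Immediate early genes are, as a class, transcribed without new protein synthesis, which was not tested here for single genes. Of 12 genes listed under this class, 11 reached the minimum with PMA. More than 2-fold higher were 7 in 427 cells and 8 with the KD label, or 7 and 4 with 1 added to both libraries. Egr3 and Fosb passed the minimum only through their PMA libraries. Egr3 had an FPKM of 0.349 and 2.47 in 427 cells with DMSO and PMA and 0.101 and 1.20 with the KD label. Fosb had 0.463 and 4.63 in 427 cells and 0.445 and 1.83 with the KD label. Fos under the KD label had 0.823 and 2.54. The log2 fold changes in 427 cells and with the KD label were 3.97 and 4.68 for Fosl1, an AP-1 subunit, 3.35 and 3.01 for Ier3 and 2.79 and 3.44 for Egr3, a zinc finger factor. The AP-1 genes Fosb (3.29 and 2.01), Fos (2.41 and 1.61) and Junb (1.02 and 1.04) were higher too. Within 2-fold in both lines were the AP-1 gene Jun (0.01 and -0.04) and Egr1 (-0.25 and 0.86). With EICD 3 of 12 were more than 2-fold higher, Egr3 (1.93), Atf3 (1.87) and Egr2 (1.76), and the list median was 0.77. With GFP over DMSO all 12 were more than 2-fold higher (10 with 1 added to both libraries). Fos had an FPKM of 0.823 with DMSO and 148.4 with GFP. This state of the transfected libraries moved together with Dusp1, Dusp4 and Dusp6, and its part in their levels was not tested. With the KD label relative to 427 cells, 2 of 9 immediate early genes were more than 2-fold lower with DMSO and 4 of 11 with PMA, and 0 were higher. With 1 added to both libraries, 0 were lower with DMSO and 1 with PMA. In the same comparisons 0 cascade genes, 0 ERK output genes and 0 of the further MAP kinase phosphatases passed 2-fold.

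**Figure D4:**
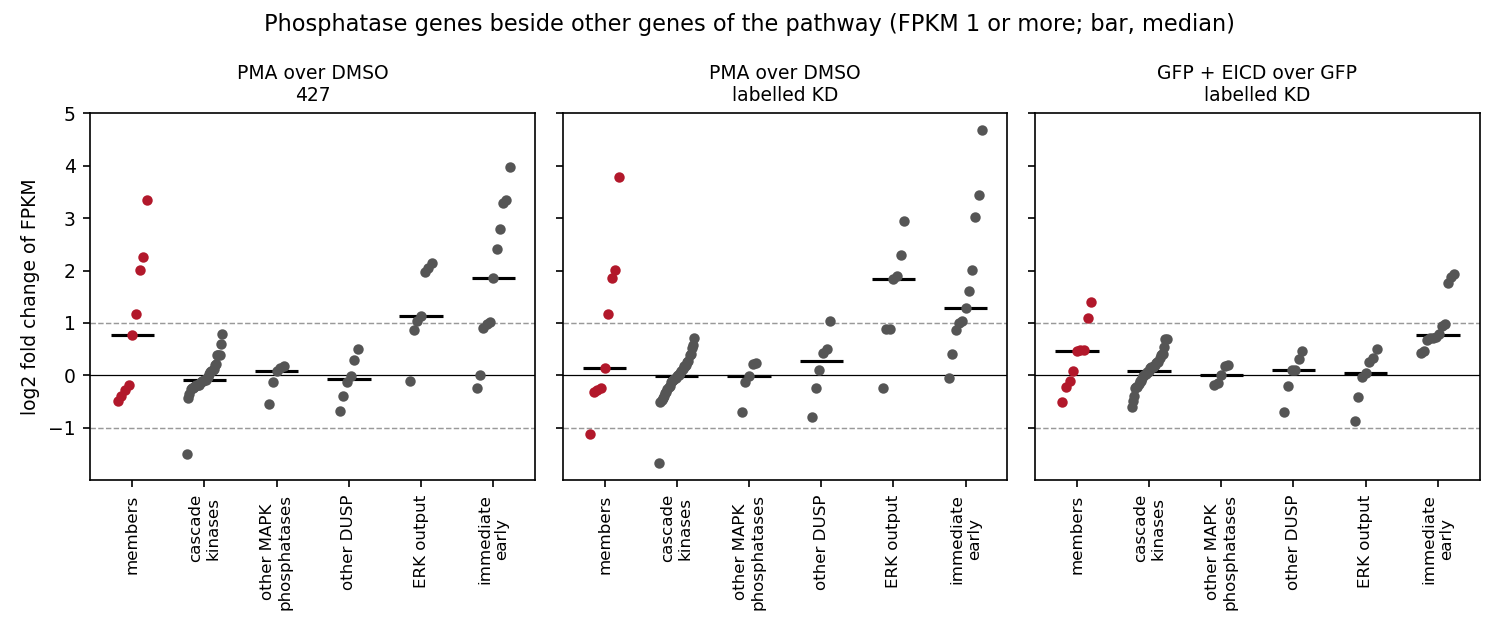
Log2 fold change of FPKM of single genes (points) and list medians (bars) for the phosphatase genes and 5 lists of related genes, for PMA in 427 cells, PMA in KD-labelled libraries and EICD. With PMA the ERK output and immediate early lists had medians of 1.13 to 1.85, and the cascade and other phosphatase lists had medians between -0.089 and 0.27.

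The genes most like Dusp6 over the 6 libraries were found by the root mean square difference of log2(FPKM + 1), each gene centred on its own mean. The closest were Fosl1 at 0.35, Ier3 at 0.45, the cytokine gene Il24 at 0.47, the cytokine gene Il1a at 0.49 and the receptor gene Hcar2 at 0.49. The nearest phosphatases were Dusp4 at 0.72, Dusp5 at 0.79 and Dusp7 at 0.98, and Dusp1 was farthest at 1.86. Fosl1 had an FPKM of 4.71 and 73.8 in 427 cells with DMSO and PMA, 1.92 and 49.5 with the KD label, and 16.7 and 27.8 with GFP and with GFP and EICD. The 6 points of each such comparison share libraries, and likeness over them is a description only.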

How the data were processed

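Poly(A)-enriched RNA of the 6 libraries was sequenced as paired 100-base reads by the authors, who deposited 1 FPKM value per locus and library (GRCm38). The study's methods name Tophat, Cufflinks and Cuffdiff, and the submitters' processing notes list TopHat2 2.1.1, Cufflinks 2.1.1, Cuffdiff 2.1.1 and STAR 2.4.0b, the last with no stated role. FPKM depends on the assembled gene models, and 9 of the 10 phosphatase loci are annotated genes with newly assembled isoforms (Dusp6 is the exception), so a change of isoform or an overlapping gene can alter a value. Groups came from the sample labels.

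From the FPKM, log2 ratios were computed with 0.01 added to both libraries (for EICD to the EICD library only, with GFP at 0.01 or more), over gene symbols that passed a minimum FPKM of 1 in 1 or both of the libraries. Ratios above 2-fold were counted. No test was made with 1 library per condition. Fragments were estimated from the median of the lowest FPKM values, scaled by length and within a fixed range, of genes with a single transcript over 2500 bases. The chosen range partly sets these estimates, and the intervals built on them cover counting error only. The comparisons share libraries: the DMSO library labelled KD is in 3 of them and the GFP library in 2. Python 3.11.15, NumPy 2.4.6, pandas 2.3.3, SciPy 1.17.1 and matplotlib 3.10.9 were used, and the scripts were tested on simulated data.

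The phosphatases and the gene lists were chosen with earlier results of these data known. Named were all 10 phosphatases, list genes more than 2-fold changed the same way by PMA in both lines or changed with EICD (at most 6 per list), the 5 genes most like Dusp6, and Sppl2b and St14. The alternatives were 0.001, 0.1 or 1 added, a minimum FPKM of 10 or none, other scalings, and the sum of all loci with a symbol. Proteins were not analysed here.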

Additional observations from a re-analysis of the deposited data

Results flagged for a closer look

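The level of Dusp5 and Dusp2 with the KD label relative to 427 cells changed sign between DMSO and PMA, which marked both for a closer look. For Dusp2 the log2 ratio was 0.28 with DMSO and -0.65 with PMA, a difference of -0.93, at FPKM below 1 and counting intervals that include 0 in each pair. For Dusp5 it was 0.33 with DMSO and -0.089 with PMA, a difference of -0.42. Neither difference was tested, since each condition was 1 library.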

How the results depend on the processing

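No paired analysis was possible because each condition had 1 library, so that no comparison held 2 samples with shared replicate numbers, and no replicate could be left out. A fit of PMA with the lines as blocks, which would leave 1 degree of freedom, was not made. Over the alternatives, 89 of 93 counts of the 10 phosphatases stayed within 1.5 times the reported count. These include the sum of all loci with a symbol, which could not move a phosphatase, since each had 1 locus. Of 376 single log2 fold changes, which left out Dusp2, 0 changed sign. An added amount or a different minimum cannot change the sign of such a ratio, so only the scalings could have done so. With 1 added to both libraries, scaling by the median ratio or a minimum FPKM of 10, the count of phosphatases higher with the KD label and DMSO went from 1 to 0 (Dusp10, close to the limit, or below the minimum). Scaling by the median ratio also took the count lower with PMA under the KD label from 1 to 0 (Dusp1). Of 430 list counts, 31 moved. With 1 added, which shrinks ratios of low genes, ERK output genes higher with PMA in 427 cells numbered 3, immediate early genes higher with PMA under the KD label 4 and other dual-specificity genes higher there 0. For the KD label over 427 cells this setting gave 0 other dual-specificity genes higher with DMSO, and 0 immediate early genes lower with DMSO and 1 with PMA. With a minimum FPKM of 10, immediate early genes higher numbered 3 with PMA in 427 cells, 5 with PMA under the KD label and 1 with EICD, and cascade genes lower with PMA in 427 cells 0. For the KD label over 427 cells this minimum gave 0 other dual-specificity genes higher with DMSO and 1 with PMA, and 1 immediate early gene lower in each pair. Scaling by the median ratio put 1 cascade gene higher with GFP over DMSO. With no minimum, other dual-specificity genes lower with PMA numbered 1 in 427 cells and 2 under the KD label, 1 was higher and 1 lower with EICD, and 1 was higher with GFP. In that setting cascade genes lower with PMA in 427 cells numbered 2 and higher with EICD 1, and further MAP kinase phosphatases numbered 1 lower in 427 cells, 2 higher under the KD label with PMA and 1 higher with GFP. For the KD label over 427 cells it gave, with DMSO, 1 other dual-specificity gene, 1 cascade gene, 1 further phosphatase and 4 immediate early genes lower, and with PMA 2 other dual-specificity genes lower and 2 further phosphatases higher. Fragment counts were not analysed here, so depth limits Dusp2 most, at an estimated 9 to 39 fragments per library.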
